A study of Homo sapiens with 45 samples.

Results

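Osteosarcoma cell lines that keep their telomeres by alternative lengthening of telomeres (ALT) were compared with osteosarcoma lines that use telomerase. The ALT lines were G292, SAOS2 and U2OS, and the telomerase lines were HOS-MNNG, KHOS and MG63, with 3 libraries per line. This made 18 of the 45 poly(A) RNA sequencing libraries of the series, 9 in each class. The lines were assigned to a class by what is known of their telomere maintenance, which the labels do not state. The series itself was built to compare Ewing sarcoma with osteosarcoma, and its 7 untreated Ewing sarcoma lines, 21 libraries, serve here only as an outside reference.

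All 6 lines are established human osteosarcoma cultures, and the labels give no treatment, genotype or growth condition for them. G292 is labelled as clone A141B1, HOS-MNNG as MNNG/HOS clone 5 of a chemically transformed HOS culture, and KHOS as KHOS/NP, also a HOS derivative. HOS-MNNG and KHOS therefore come from 1 donor, so the telomerase class holds 3 lines and 2 donors. The labels do not say whether the 3 libraries of a line were separate cultures. Libraries were summed within a line, the line was the replicate, and p-values measure the spread between these lines. In bulk RNA, fewer cells that express a gene and less RNA per cell cannot be told apart.

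Telomerase is a reverse transcriptase, TERT, that copies telomere repeats from its RNA template, TERC. Most body cells silence TERT, and tumour cells must restore telomere length either by expressing it again or by ALT, in which a telomere end is extended by copying another telomere through homologous recombination. ALT is common in osteosarcoma and often goes with loss of ATRX or DAXX, which together place the histone variant H3.3 at telomeres and other repeats. U2OS and SAOS2 are known to carry ATRX deletions, and G292 is known for a rearrangement that joins DAXX to KIFC3.

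TERT messenger RNA separated the classes. In TPM, a level scaled by the authors for transcript length and library depth, TERT was 0 in all 3 libraries of G292 and in all 3 of SAOS2. The U2OS libraries had 0.0186, 0.0421 and 0.0188 TPM, which rested on 4 estimated counts in all. The HOS-MNNG libraries had 1.4, 1.2 and 1.56 TPM, the KHOS libraries 3.12, 2.22 and 2.6, and the MG63 libraries 0.642, 0.656 and 0.707. Every telomerase library was thus above every ALT library, and MG63 was the lowest of the telomerase lines. The Ewing sarcoma lines had line means of 3.25 to 10.3 TPM, above all 6 osteosarcoma lines.

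The class means were 0.00883 ± 0.0153 TPM in the ALT lines and 1.57 ± 1 TPM in the telomerase lines (SD, n = 3 lines each). With edgeR's quasi-likelihood test across all genes, the log2 fold change was -7.97 with a standard error of 1.70, an unadjusted p of 0.00275 and a Benjamini-Hochberg false discovery rate (FDR) of 0.411. The FDR missed the threshold of 0.05. DESeq2 gave an FDR of 1.5e-07 on the same line sums, and limma with the line as a random effect gave 0.0095. On the log2(TPM + 1) scale the class means lay -1.27 apart. An exact permutation test over lines, 2-sided, gave p = 0.1, and 3 against 3 lines cannot go lower. With HOS-MNNG and KHOS as 1 unit, edgeR gave -7.75 with an FDR of 0.861.

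The TERT level was next split by annotated transcript. NM_198253.3, the full-length coding transcript, held 75% of the TERT TPM in HOS-MNNG, 75.2% in KHOS and 36.3% in MG63. NR_149162.3, annotated as non-coding, held 23.6%, 17.3% and 63.7%. In MG63 the share of NM_198253.3 ran from 0% to 76.3% between libraries, so the split of reads between these transcripts was unstable at that depth. That range reached into the 73% to 79.8% of the HOS-MNNG libraries and the 70% to 78.9% of the KHOS libraries. A difference between these lines was therefore not shown. The 4 counts of U2OS were all assigned to NR_149163.3, another non-coding transcript. No count was assigned to NM_198253.3 in any ALT library.

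The TERT gene (gene ID 7015) lies on the minus strand of chromosome 5, from 1253167 to 1295068. Its RefSeq promoter is shown because TERT is the gene whose expression marks a telomerase line. It is the 250 bases upstream of the annotated start, chr5:1295069-1295318 of GRCh38.p14, written 5′ to 3′ on the gene's strand. Capitals mark the E-box CACGTG and the GC-boxes GGGCGG or CCGCCC.
TERT: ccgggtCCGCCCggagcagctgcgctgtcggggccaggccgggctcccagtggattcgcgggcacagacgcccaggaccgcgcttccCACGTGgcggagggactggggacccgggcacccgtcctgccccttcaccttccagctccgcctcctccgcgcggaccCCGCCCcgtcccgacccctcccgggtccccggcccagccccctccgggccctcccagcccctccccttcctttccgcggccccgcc
The E-box, the sequence that MYC-MAX dimers bind, lay at -163 to -158 from the start. The GC-boxes, of the kind that SP1 binds, lay on the opposite strand at -244 to -239 and at -86 to -81. GGAA or TTCC, the core that ETS family factors bind, occurred 4 times. Of 27305 RefSeq promoter windows of the same length, 6.49% held CACGTG, 42.3% held GGGCGG on either strand and 92.8% held GGAA on either strand. The GC content of the window was 78.8%, against a median of 58% over all windows. These are matches of letters and say nothing of occupancy.

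Factors known to act on this promoter were examined next. Of 17 that passed the filter on low counts, 13 had estimates below 0. Of all 21981 genes tested, 10075 had estimates below 0 and 11906 above, to be set beside such counts here and below. None of the 17 was called by edgeR, which called 0% of all genes tested, or by DESeq2, which called 3.93%. MYC, which activates TERT through E-boxes, had 98.3, 96.4 and 82.4 TPM in G292, SAOS2 and U2OS, and 8.51, 5.5 and 81.4 in HOS-MNNG, KHOS and MG63. It was therefore low in both HOS derivatives and near the ALT lines in MG63 (log2 fold change 1.34, edgeR FDR 0.656), and the estimate was -0.01 against MG63 alone. ETS1 had 30.6, 49.9 and 38.6 TPM in the ALT lines against 66, 105 and 42.9, with SAOS2 above MG63. GABPB1, a subunit of the ETS family complex GABP, had a log2 fold change of -0.60 and an edgeR FDR of 0.595. In log2 CPM, counts scaled for library size, it and the cell cycle factor E2F1, named because the count was small, were lower in every ALT line, which is 11.8% of the 17 against 7.48% of all genes, but both overlapped in TPM.

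**Figure D1:**
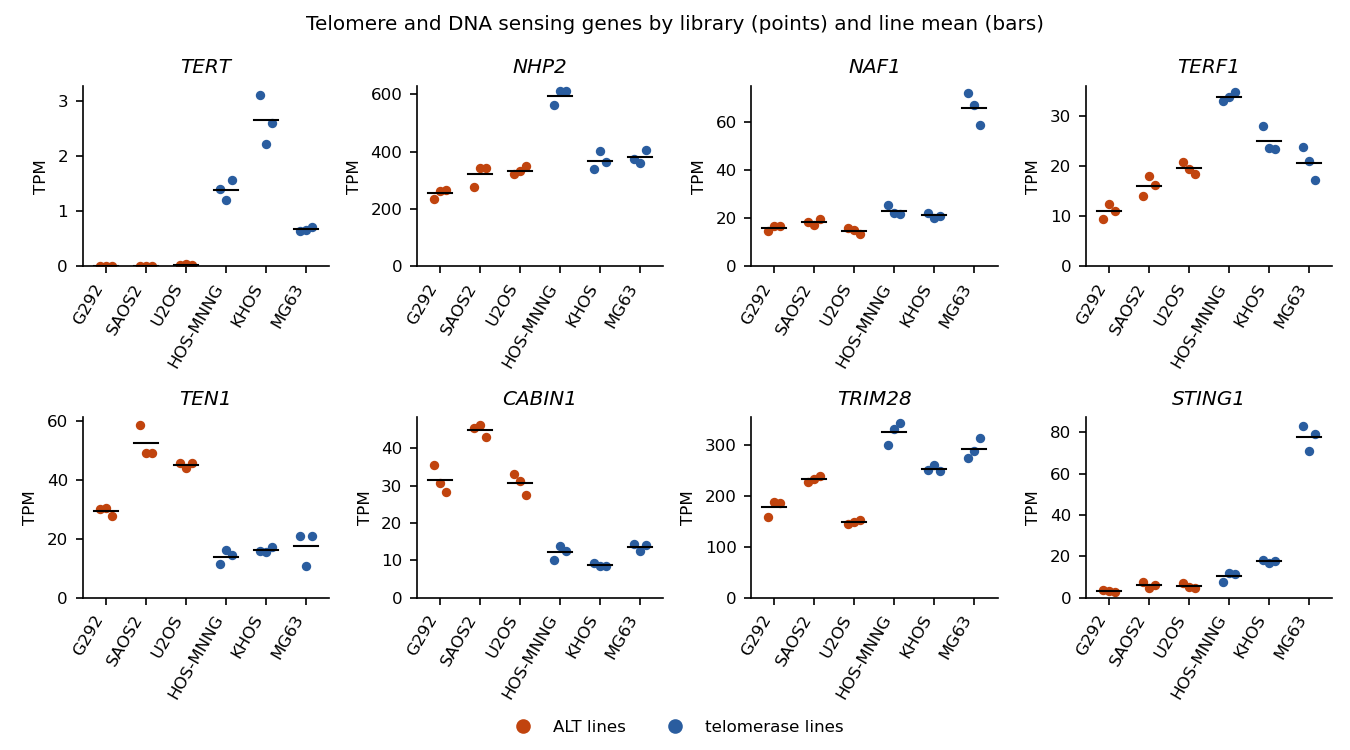
TPM of 8 genes in each of the 18 libraries (points), with the mean of a line as a bar, ALT lines in orange and telomerase lines in blue. TERT was at 0 in G292 and SAOS2 and at most 0.0421 TPM in a U2OS library, TEN1 and CABIN1 were higher in every ALT line, and MG63 stood far above the other lines for NAF1 and STING1.

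The RNA and assembly factors of telomerase differed less than TERT. Of 13 genes for telomerase and its assembly, 11 had estimates below 0, the median log2 fold change was -0.78 against 0.08 over all 21981 genes tested, and edgeR called none. The median was -0.46 without KHOS and -0.27 against MG63 alone. Line values of log2 CPM lay lower in all 3 ALT lines than in any telomerase line for 5 of the 13, TERT, NHP2, NAF1, RUVBL1 and PARN. Of all genes tested, 7.48% were lower in this way and 8.06% higher, and none of the 13 was higher. RUVBL1 and PARN are named because the count was small, after their values were seen.

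NHP2, a core protein of the telomerase RNA particle, measured 255, 321 and 334 TPM in G292, SAOS2 and U2OS and 594, 368 and 380 TPM in HOS-MNNG, KHOS and MG63. U2OS and KHOS were close to each other, although the classes did not overlap (log2 fold change -0.87, SE 0.31, edgeR FDR 0.487). NAF1, which helps assemble that particle, measured 16, 18.4 and 14.7 TPM against 22.9, 21.1 and 65.7. MG63 was the highest, and the log2 fold change of -1.51 was -0.85 without that line. DKC1, dyskerin, overlapped, at 100, 176 and 158 TPM against 217, 177 and 94.8. TERC was measured at 0 to 3.34 TPM per library and was at 0 in all 3 U2OS libraries. It has no poly(A) tail, so its level in poly(A) libraries is a poor measure of the RNA.

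Among 13 genes of shelterin and the CST complex, the proteins that cap telomeres and complete their lagging strand, 9 had estimates below 0 and the median was -0.23. It was 0.05 without HOS-MNNG and 0.30 against MG63 alone, so its sign turned with the telomerase lines used, and -0.46 without MG63 or without G292. TEN1 and TINF2 lay higher in every ALT line and TERF1 lower, which is 15.4% and 7.69% of the 13 against 8.06% and 7.48% of all genes. TEN1, the smallest CST subunit, had 29.5, 52.4 and 45.1 TPM in the ALT lines and 14, 16.3 and 17.6 in the telomerase lines (log2 fold change 1.08, SE 0.45, edgeR FDR 0.499). TERF1, which binds double-stranded telomere repeats, had 11, 16.1 and 19.6 TPM against 33.8, 24.9 and 20.7 (-1.08, SE 0.37, edgeR FDR 0.484). U2OS and MG63 were nearly level for TERF1, and their libraries overlapped. TINF2, the shelterin scaffold, was named after its values were seen and had 40 to 50 TPM against 22.6 to 26.8. STN1 had an estimate of -0.81 with overlapping lines. TERF2 (-0.23) and POT1 (-0.30) overlapped, and both had estimates above 0 without HOS-MNNG.

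ATRX (gene ID 546, chromosome X, 77504880 to 77786216) encodes a chromatin remodeller, and the classes overlapped in its total level. It was 19.8 ± 1.12 TPM in G292, 1.96 ± 0.0929 in SAOS2 and 33.9 ± 8.24 in U2OS, and 20.9 ± 2.2 in HOS-MNNG, 15.8 ± 1.8 in KHOS and 19.7 ± 2.7 in MG63 (SD, n = 3 libraries each). SAOS2 was far below the other lines and U2OS was the highest of the 6. The log2 fold change was -0.17 with a standard error of 0.97 and an edgeR FDR of 0.963. The direction rested on SAOS2, since the estimate without it was 0.36. On the log2(TPM + 1) scale the difference was -0.61, and the same exact permutation test gave p = 0.9.

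The transcripts behind that level set U2OS and SAOS2 apart. RefSeq lists 11 ATRX transcripts in these tables, which were grouped after their values were seen. In U2OS, XM_005262157.6 and XM_017029604.3 together held 33.5 ± 7.9 TPM, or 99.1% of the ATRX level, with 97.8% to 99.9% in single libraries. The same pair held at most 4.65% on average in any other osteosarcoma line and at most 14.6% in any of the 21 Ewing sarcoma libraries. In SAOS2, the shorter transcript XM_006724668.4, of 6044 nt, held 1.86 ± 0.0456 TPM or 94.9% of the ATRX level. It was listed at 0 in G292 and MG63 and held at most 5.86% in a Ewing sarcoma library.

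G292 had a mixture of ATRX transcripts like that of the telomerase lines. The 7 other transcripts, of 11048 to 11165 nt, held 67.6% of the level in G292, 56.2% in HOS-MNNG, 54.9% in KHOS and 71.7% in MG63, but 0.488% in SAOS2 and 0.604% in U2OS. XM_047442191.1, of 6398 nt, held 28.8%, 38.4%, 41% and 26.8% in the first 4 of these lines, was listed at 0 in SAOS2 and held 0.246% in U2OS. The shares come from an assignment of reads among annotated transcripts. A deleted transcript that is not annotated can be assigned to the nearest annotated one, so the shares do not show which exons the RNA holds. The ranges of single libraries did not meet: the U2OS pair held at most 6.79% in a library of G292, HOS-MNNG, KHOS or MG63, and the SAOS2 transcript at most 2.93%, against 92.3% or more in SAOS2.

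**Figure D2:**
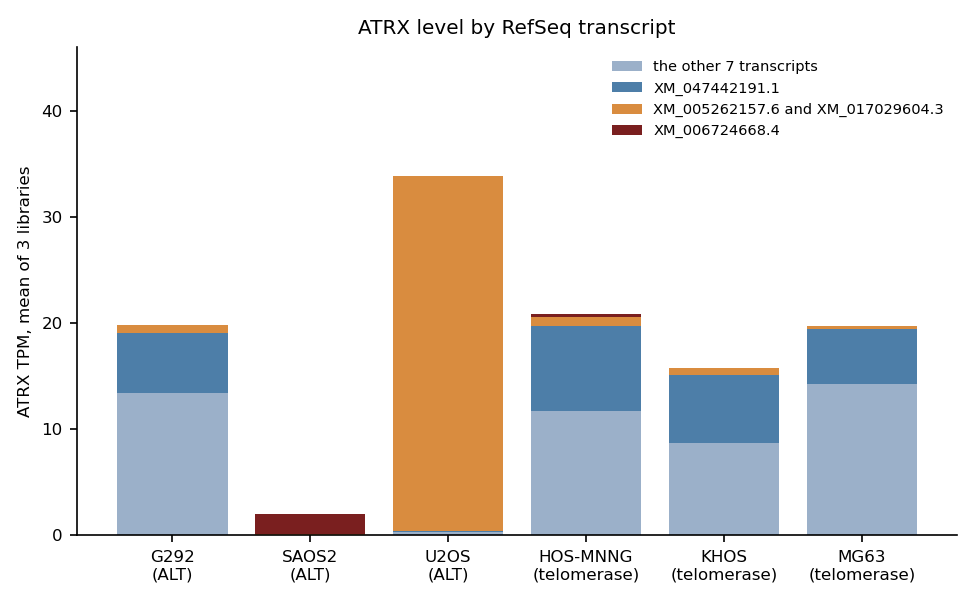
ATRX level in TPM by line (mean of 3 libraries), stacked by RefSeq transcript group. U2OS, at 33.9 TPM, was made up almost wholly of XM_005262157.6 and XM_017029604.3, SAOS2, at 1.96 TPM, of XM_006724668.4, and the other 4 lines shared another mixture.

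DAXX (gene ID 1616, chromosome 6, 33318558 to 33322959), the histone chaperone that works with ATRX, was lowest in G292, at 26.7 TPM, against 65 in SAOS2, 77.1 in U2OS, 79.7 in HOS-MNNG, 68.6 in KHOS and 43 in MG63. The classes overlapped (log2 fold change -0.48, edgeR FDR 0.734). The short transcript XM_005248860.4, of 1467 nt, held 0.896% of the DAXX level in G292 and 8.34% to 23.8% in the other 5 lines. It was chosen after its values were seen. KIFC3, a kinesin and the other gene of the G292 rearrangement, was not extreme in G292, at 74.4 TPM among 34.5 to 127.

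Of the 22 genes for ATRX, DAXX and H3.3 chromatin, 16 had estimates below 0 and the median was -0.34, with -0.19 without HOS-MNNG and -0.52 without SAOS2. In log2 CPM, 1 of the 22 was higher in every ALT line (4.55%) and 4 were lower (18.2%), against 8.06% and 7.48% of all genes. The 4 were UBN1, SETDB1, TRIM28 and MACROH2A1, with UBN1 and MACROH2A1 named because the count was small. DESeq2 called 1 of the 22, the higher one, against 3.93% of all genes tested. That gene was CABIN1, a subunit of the HIRA chaperone complex that deposits H3.3 outside telomeres. It had 31.6, 44.9 and 30.6 TPM in the ALT lines and 12.2, 8.75 and 13.7 in the telomerase lines, so that the lowest ALT library, at 27.5, was above the highest telomerase library, at 14.4. Its log2 fold change was 1.36 with a standard error of 0.30, an edgeR FDR of 0.413 and a DESeq2 FDR of 0.0119. CABIN1 lies on chromosome 22, where 14.9% of the genes tested were higher in all 3 ALT lines, the highest share of any chromosome.

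TRIM28 and SETDB1, a corepressor and the histone H3 lysine 9 methyltransferase that it recruits, lay lower in every ALT line. TRIM28 had 178, 234 and 150 TPM against 326, 254 and 293 (log2 fold change -0.94, SE 0.29, edgeR FDR 0.464). SETDB1 had 26.2, 28.6 and 15 TPM against 41.3, 40.5 and 32.9 (-1.08, SE 0.39, edgeR FDR 0.489). The H3.3 genes themselves overlapped, with estimates of 0.14 for H3-3A and -0.17 for H3-3B, and that for H3-3A was -0.38 without G292. NME4, a gene of the alpha-globin region where ATRX loss is known to act, was the 1 gene of 5 there that passed the filter. It ranged from 13 TPM in SAOS2 to 374 in MG63 and overlapped.

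Genes of the recombination machinery that copies telomeres in ALT had estimates on both sides of 0. Of 44 genes for recombination and replication stress, 18 had estimates above 0 and 26 below, with a median of -0.11 that was 0.10 against MG63 alone. Line values were higher in every ALT line for 1 gene (2.27%) and lower for 9 (20.5%), against 8.06% and 7.48% of all genes, and none of the 44 had an unadjusted edgeR p under 0.05, which 9.97% of all genes had. The 1 higher gene was ZNF827, a zinc finger protein known to recruit a repressor complex to ALT telomeres, named here because it stood alone. It had 20.9, 19.4 and 11 TPM against 6.2, 6.29 and 0.94 (log2 fold change 1.60, SE 0.80, edgeR FDR 0.548).

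SMC6, a subunit of the complex that handles joined DNA strands, had 19.6, 26.6 and 17.5 TPM in the ALT lines against 41, 26.8 and 25.2 (log2 fold change -0.83, edgeR FDR 0.502). In TPM its classes overlapped, since SAOS2 lay above MG63, and only in log2 CPM was every ALT line lower. EME1, a subunit of a structure-specific nuclease, had an estimate of -0.85. SLX4IP (0.27) and SMARCAL1 (-0.40), both linked to ALT, overlapped. TSPYL5, which protects POT1 in ALT cells, was present in SAOS2 (20.4 TPM), U2OS (34.5) and KHOS (13.4) and at 0.0434 TPM or less in G292, HOS-MNNG and MG63, so its presence crossed the classes.

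STING1 is the adaptor that signals after CGAS has detected DNA outside the nucleus. It had 3.44, 6.14 and 5.65 TPM in G292, SAOS2 and U2OS and 10.4, 17.6 and 77.7 in HOS-MNNG, KHOS and MG63. The highest SAOS2 library, at 7.75, was just above the lowest HOS-MNNG library, at 7.58, although the line means did not overlap. The log2 fold change was -3.07 with a standard error of 0.80, an edgeR FDR of 0.441, a DESeq2 FDR of 0.00741 and a random line FDR of 0.105, and it was -1.92 without MG63. The Ewing sarcoma lines had 21.4 to 51.8 TPM, above all osteosarcoma lines but MG63. CGAS itself overlapped, at 6.36 to 10.4 TPM against 8.97 to 22.3.

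Of the 12 DNA sensing genes, STING1 was lower and AIM2 higher in every ALT line, with AIM2 at no more than 0.195 TPM in any line. That is 8.33% of the list each way, near the 7.48% and 8.06% of all genes. No gene of the 19 for the interferon response had line values that kept the classes apart. IFI6 (616, 113 and 33.8 TPM against 8.69, 8.5 and 67.3) was highest in G292, as were IRF9 and ISG15, with 67.7 and 291 TPM. The median of that list was 0.36. It was -1.13 without G292 and -0.28 against MG63 alone, but 0.81 without U2OS and 1.81 without MG63.

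HLA-B, which presents peptides to T cells, was higher in every ALT line, at 367, 717 and 232 TPM against 36.9, 14.1 and 54.5. The lowest ALT library, at 223, lay above the highest telomerase library, at 60.9, and the 3 G292 libraries spread from 228 to 589. The log2 fold change was 3.36 with a standard error of 0.63, an edgeR FDR of 0.406, a DESeq2 FDR of 0.0003 and a random line FDR of 0.0791. Reads can be shared with other class I genes of near-identical sequence, and alleles differ between donors, so the level is uncertain. Of the 13 genes for class I presentation, HLA-B and HLA-F were higher (15.4%, against 8.06% of all genes) and the peptide transporter TAP2 lower (7.69%, against 7.48%) in log2 CPM, while TAP2 overlapped in TPM and CIITA in both. The median of 0.14 was 1.18 without MG63 and -0.05 without SAOS2.

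The first principal component of the line values, with 32.3% of the variance, mainly set the HOS derivatives apart. HOS-MNNG and KHOS lay at 128 and 163, the ALT lines at -110 to -65.9, and MG63, the nearest telomerase line to them, at -44.9. The second, with 25.3%, placed MG63 at 120 beside G292 at 114. Log2 CPM of HOS-MNNG and KHOS correlated at a Pearson r of 0.964 across genes. The next highest value of any pair of lines was 0.877, between G292 and MG63, which are of different classes.

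**Figure D3:**
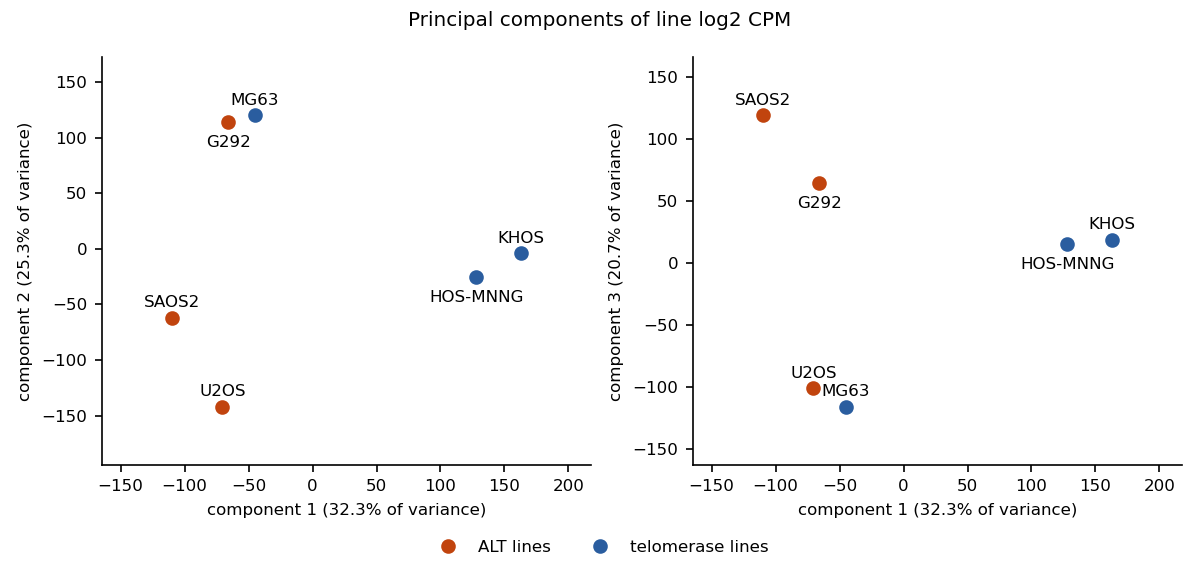
Principal components 1 to 3 of log2 CPM of the 6 lines (1 point per line, ALT orange, telomerase blue). HOS-MNNG and KHOS sit together at 128 and 163 on component 1, and MG63 sits at -44.9, next to the ALT lines at -110 to -65.9.

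Across the whole transcriptome, edgeR called 0 of 21981 genes, 0% of those tested, and its smallest FDR was 0.35. At an unadjusted p under 0.05 it had 2191 genes, 1328 higher (6.04%) and 863 lower (3.93%) in the ALT lines. DESeq2 called 864 genes on the same sums, 550 higher (2.5%) and 314 lower (1.43%), and the random line fit called 249 of 21915 (1.14%), 126 higher (0.575%) and 123 lower (0.561%). Of those 249, DESeq2 called 162. Line values did not overlap for 1772 higher and 1644 lower genes. With HOS-MNNG and KHOS as 1 unit edgeR called 0 genes and had 1224 of 23452 at an unadjusted p under 0.05. The DESeq2 and random line fits took these lines of 1 donor as separate and were not rerun with them as 1 unit. The genes below are those with the smallest edgeR p among genes whose classes do not overlap, so their separation was a condition of being named. DESeq2 called all 20, the random line fit 16 and edgeR none. These fits used the same libraries from which the 20 were picked, so their calls are not separate support.

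Of the 10 genes named as higher in the ALT lines, PCBP4, an RNA-binding protein of the KH domain family, came first (gene ID 57060, chromosome 3, 51957454 to 51967466). Its libraries had 108, 110 and 103 TPM in G292, 130, 135 and 134 in SAOS2 and 142, 135 and 134 in U2OS. They had 9.12, 13.6 and 14.5 TPM in HOS-MNNG, 14.7, 14.4 and 18.5 in KHOS and 22, 19.4 and 23.1 in MG63. The ALT lines were close to each other and each was far above the telomerase lines (log2 fold change 2.59, SE 0.32, edgeR FDR 0.35, DESeq2 FDR 2.6e-09). The Ewing sarcoma lines lay between 10.1 and 45.8 TPM, below every ALT line.

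CLIP3, a protein that links endosomes to microtubules, had 30.2, 20.4 and 36.4 TPM against 0.435, 1.19 and 0.738 (log2 fold change 4.86). DACT1, an inhibitor of Wnt signalling, had 18.1, 21.3 and 20 TPM against 1.65, 0.801 and 0.915 (3.84), and 0.0789 to 8.86 in the Ewing sarcoma lines. CSDC2, an RNA-binding cold shock domain protein, was uneven, at 6.46, 40.3 and 101 TPM against 0.0712 or less (9.88). NAP1L3, a nucleosome assembly protein family member, had 24, 12.9 and 16.7 TPM against 0.462 or less (5.48).

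The zinc finger genes ZNF667 and ZNF471, which lie near each other on chromosome 19, and the kinase gene RPS6KA6 were low in absolute terms. ZNF667 had 6.59, 7.86 and 3.21 TPM against 0.122 to 0.155, and ZNF471 1.19, 2.26 and 2.05 against 0.0461 to 0.0668. RPS6KA6 had 0.92, 3.48 and 3.07 TPM against 0.0372 or less, and HRNR, an epidermal barrier gene, 0.84 to 1.29 against 0.0148 or less. CHMP1B2P is a processed copy of CHMP1B, so its counts are uncertain. It had 1642 estimated counts in the ALT lines and 2 in the telomerase lines, a ratio of 645 after scaling for depth with a 95% exact interval of 178 to 5324 that covers counting error only. Zinc finger genes as a family stayed near the background, with 35 of 460 ZNF genes higher (7.61%, against 8.06% of all genes) and 33 lower (7.17%, against 7.48%). Of 43 clustered protocadherin genes, 5 were higher (11.6%) and 1 lower (2.33%).

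The 10 genes named as lower were led by BARX1, a homeobox gene of craniofacial and stomach mesenchyme (gene ID 56033, chromosome 9, 93951627 to 93955355). Its libraries had 0 TPM in G292, 0.0494 to 0.149 in SAOS2 and 0.0475 to 0.162 in U2OS. They had 24.4, 36.3 and 32.7 TPM in HOS-MNNG, 27.9, 38.3 and 30 in KHOS and 74.1, 75.3 and 86.1 in MG63. BARX1 was thus near 0 in all ALT lines (log2 fold change -9.78, SE 1.36, edgeR FDR 0.35, DESeq2 FDR 6.8e-21), while the Ewing sarcoma lines ran from 0.0562 to 131 TPM. TBX1, a T-box factor of the pharyngeal arches, had 0.182, 0.327 and 0.135 TPM against 7.54, 6.31 and 24.8 (-6.52), and 5.92 or more in every Ewing sarcoma line.

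LPXN, leupaxin, a focal adhesion protein, had 9.02, 5.67 and 6.96 TPM against 37.9, 47.1 and 34.6 (log2 fold change -2.45). TNFRSF1B, a receptor for tumour necrosis factor, had 0.208 to 0.51 TPM against 2.59, 3.76 and 7.47 (-4.09). PLAAT3, a phospholipase, had 0.427 to 1.85 TPM against 23.1 to 49.3 (-5.00), and SLC16A5, a monocarboxylate transporter family member, 0.28 to 0.501 against 5.15 to 9.44 (-4.85). THEM6 had 9.22 to 11.7 TPM against 31.4 to 50.7 (-2.25). VIRMA, a subunit of the complex that writes N6-methyladenosine into RNA, varied little within a class, at 16.4, 23 and 19.2 TPM against 54.3, 45.7 and 44.5 (-1.54, SE 0.28).

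MT1L, a transcribed metallothionein pseudogene, had 0.64, 0 and 0.232 TPM against 303, 500 and 100 (log2 fold change -10.37). It shares sequence with the other metallothionein genes, so its level is uncertain. MT2A, a metal-binding metallothionein named after its values were seen, had 2603, 360 and 2539 TPM against 4561, 6980 and 6367 (-1.97, edgeR FDR 0.497). RPS18, a protein of the small ribosomal subunit with many processed copies, had 4566, 4682 and 4218 TPM against 8383, 8978 and 13856 (-1.48, SE 0.28, edgeR FDR 0.406). Ribosomal protein genes, RPS18 among them, were looked at after this value was seen. Of 82 tested, 31 were lower in every ALT line (37.8%, against 7.48% of all genes), none was higher, none was called by edgeR, and the median log2 fold change was -0.60. That median ran from -0.83 to -0.22 over the alternatives, and the latter value was for MG63 alone, where the median of all genes was 0.29.

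**Figure D4:**
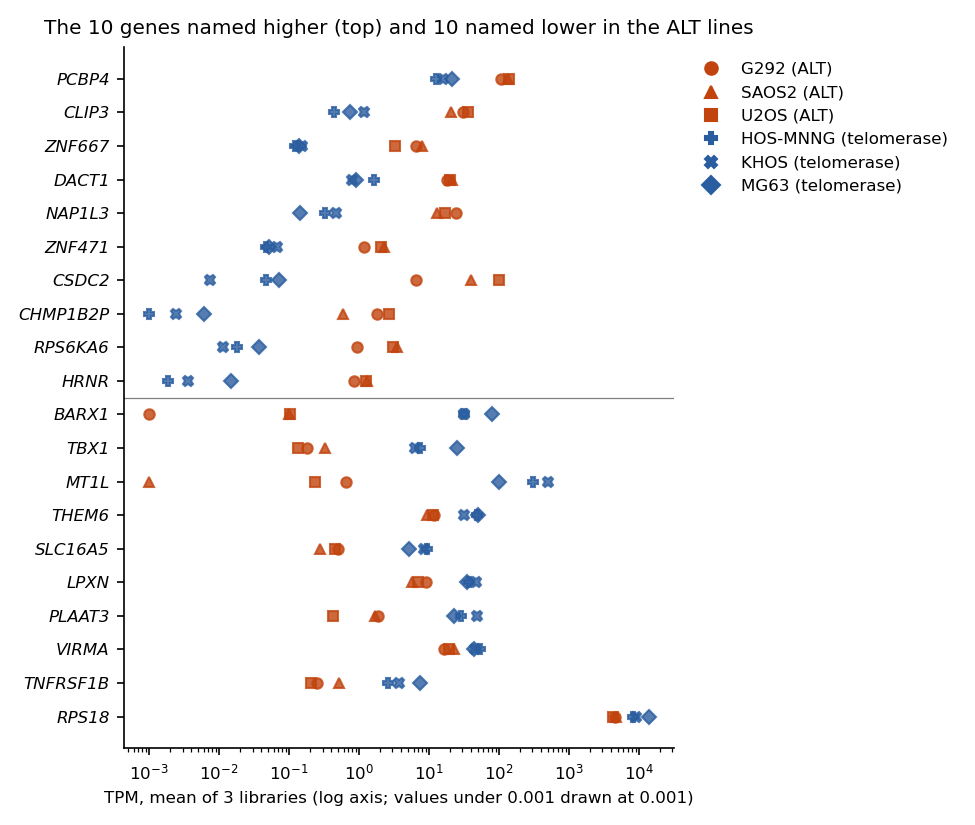
Mean TPM of each line on a log axis for the 10 genes named as higher (upper rows) and the 10 named as lower (lower rows) in the ALT lines. No gene has overlapping classes, which was a condition of the choice, and VIRMA lies at 16.4 to 23 against 44.5 to 54.3 TPM.

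The promoter table held 7 of the 10 higher and 5 of the 10 lower genes. None of these 12 windows held the E-box, 4 of the 7 and 1 of the 5 held GGGCGG, and 6 of the 7 and 4 of the 5 held GGAA on either strand, which most promoters do.

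Some regulators of the cell cycle stood out in single lines. RB1, which holds cells before S phase, was lowest in SAOS2, at 12.4 TPM among 22.4 to 43.8. CDK4, the kinase that inactivates RB1, was at 4091 TPM in G292 and at 186 to 269 in the other 5 lines, and its estimate of 2.70 was -0.04 without G292. MDM2, a ubiquitin ligase, had 23.3, 29.7 and 37.6 TPM against 16.7, 9.42 and 16.4 (0.80, SE 0.30, edgeR FDR 0.495).

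The INK4 inhibitors on chromosome 9 were near 0 in all telomerase lines. CDKN2B, which encodes p15, had 5.07, 37.3 and 2.95 TPM in the ALT lines and 0.00945, 0 and 0 in the telomerase lines. Its counts were 7859 and 2, a ratio of 3086 after scaling for depth. The 95% exact interval, for counting error only, was 854 to 25483. SAOS2 held 6225 of the ALT counts, and the 2 telomerase counts were in HOS-MNNG. The log2 fold change was 11.52 with a standard error of 1.86, and it was 9.70 without SAOS2 and 14.26 without HOS-MNNG. The edgeR FDR was 0.377 and missed the threshold, while the DESeq2 FDR was 4.9e-10 and the random line FDR 0.0457. CDKN2A, which encodes p16 and ARF, had 231 and 405 TPM in G292 and SAOS2 but 0.0593 in U2OS, and 0.0592 or less in the telomerase lines. CDKN2A had 12010 and 15685 counts in G292 and SAOS2 but at most 3 in any other line. With so few lines expressing it, it did not pass the filter on low counts and was not tested. CDKN2B passed that filter only through its counts in the ALT lines, where it was high. MTAP, the metabolic gene beside them, was named after its values were seen. It had 0.217 and 0.139 TPM in HOS-MNNG and KHOS and 46.7 in MG63, within the 29.7 to 51.9 of the ALT lines. In counts summed over a line, MG63 had 1386 and the ALT lines 4102 to 9131. Their scaled library sizes were 61337818 in MG63 and 94450904 to 109870524 in the ALT lines. After that scaling every ALT line was still higher in log2 CPM (log2 fold change 2.98, edgeR FDR 0.547, DESeq2 FDR 0.257, random line FDR 0.00628). The estimate was 1.45 against MG63 alone. Unlike TPM, log2 CPM is not scaled for transcript length, and the part of length was not tested.

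Among 20 S phase genes 17 had estimates below 0 with a median of -0.46, and among 20 G2/M genes 17 did, with a median of -0.27. The former was -0.22 against MG63 alone, and the latter ran from -0.45 without U2OS to -0.19 without SAOS2. Lines did not overlap for 2 S phase genes (10%) and 3 G2/M genes (15%), all lower, against 7.48% of all genes. HMMR, a spindle protein, had 34.2, 52.8 and 44.8 TPM against 70.1, 59.9 and 107 (-1.13, edgeR FDR 0.442, DESeq2 FDR 0.0381, random line FDR 0.368). PLK1 (-0.79) and AURKA (-0.87), both mitotic kinases, and POLA1 (-0.76), the catalytic subunit of DNA polymerase alpha, were also lower in every ALT line in log2 CPM, with edgeR FDR values of 0.478, 0.491 and 0.491. In TPM, AURKA overlapped, at 159 in U2OS and 152 in MG63. Growth rate and cell density at harvest are not in the labels, and their part was not tested.

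Feedback genes of the MAPK pathway, which record ERK signalling, had a median of -1.24 over 17 genes, and 16 had estimates below 0. EGR1, an immediate early transcription factor, had 28.1, 36.4 and 74.6 TPM against 127, 86.3 and 114 (log2 fold change -1.53, SE 0.39, edgeR FDR 0.438, DESeq2 FDR 0.0257, random line FDR 0.882). Its libraries overlapped widely, at 8.95 to 147 TPM in the ALT lines and 34 to 242 in the telomerase lines. MG63 had 242, 44.5 and 55.4, so that 1 library carried its mean, and U2OS had 46.7, 147 and 29.6. DUSP6, an ERK phosphatase named after its values were seen, had 33.7, 0.344 and 0.466 TPM against 96.3, 95.5 and 62.6. G292 thus lay nearer to the telomerase lines than SAOS2 and U2OS did, and the same held for SPRY4, an inhibitor of receptor signalling named the same way, at 33.8, 0.0927 and 0.21 against 41.2, 82.8 and 38.1. IER3 and DUSP5 overlapped. The median of the list was 0.33 against MG63 alone and -2.97 without G292.

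**Figure D5:**
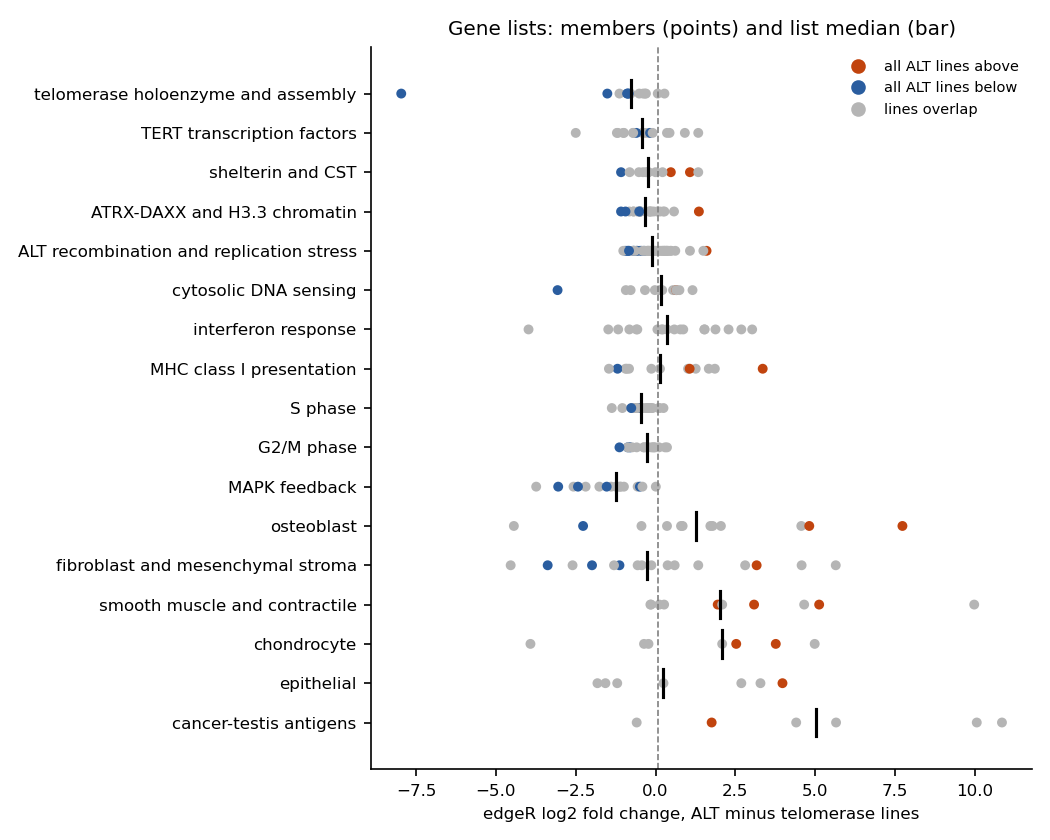
edgeR log2 fold change (ALT minus telomerase lines) of each tested member of the lists described here that had 6 or more tested genes, with list medians as bars and the median of all genes, 0.08, as a dashed line. Orange and blue points are genes whose 3 ALT lines all lay above or below the telomerase lines, and the medians run from -1.24 for MAPK feedback to 5.03 for cancer-testis antigens, a list with only 6 tested genes whose median was 2.14 without U2OS.

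Markers of tissue identity were checked because the lines differ in more than telomere maintenance. VIM, the mesenchymal filament vimentin, was named after its values were seen. It was abundant in every line, from 849 TPM in SAOS2 to 4809 in MG63, and was lower in every ALT line in log2 CPM (-1.13, edgeR FDR 0.546). The bone factor SP7 was at 22.1 TPM in SAOS2 and at 0.0139 or less in the other 5 lines, and ALPL, the bone alkaline phosphatase, was at 824 TPM in SAOS2, 12.5 in G292 and 5.91 in U2OS against 0.482, 0.122 and 2.82. Of 12 osteoblast genes tested, ALPL and BMP2 were higher and PHEX lower in every ALT line, which is 16.7% and 8.33% against 8.06% and 7.48% of all genes. The median was 1.28 and 0.23 without SAOS2.

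Of 10 contractile genes, 8 had estimates above 0. DESeq2 called 4, all higher, against 2.5% of all genes tested, edgeR called none, and the median was 2.02. MYL9, a regulatory myosin light chain, had 54.8, 160 and 151 TPM against 20.1, 6.22 and 8.09 (log2 fold change 3.09, SE 0.61, edgeR FDR 0.406, DESeq2 FDR 0.00077). TAGLN, transgelin, had 28.3, 210 and 80.2 TPM against 4.98, 0.698 and 1.45 (5.13, random line FDR 0.199), and CALD1, caldesmon, 78.3, 223 and 103 against 33.5, 20.4 and 33.4 (1.95, random line FDR 0.059). The other gene called was CNN1, calponin, named after its values were seen, at 260 and 83 TPM in SAOS2 and U2OS but 0.0549 in G292. MYH11, the defining myosin of mature smooth muscle, was at 0.264 TPM or less in all 6 lines. The list median was 0.79 without SAOS2 and 3.40 without MG63.

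Of 16 fibroblast genes tested, 7 had estimates above 0 and 9 below. In log2 CPM THY1 was higher in every ALT line (6.25%, against 8.06% of all genes) and VIM, S100A4 and the surface enzyme NT5E, named because the count was small, were lower (18.8%, against 7.48%). In TPM, VIM and NT5E overlapped. The median of -0.28 turned with the lines used, at 2.91 without MG63 and -2.00 without G292. S100A4, a calcium-binding protein of motile cells, was lower in every ALT line, at 194, 280 and 99.3 TPM against 944, 384 and 3908 (log2 fold change -3.38, edgeR FDR 0.441, DESeq2 FDR 0.00834, random line FDR 0.0795), and -2.13 without MG63. THY1, named after its values were seen, was at 80.8 to 134 TPM against 1.23, 0.114 and 28.1. PRRX1 was at 222 TPM in G292 and at 4.68 or less elsewhere, so its estimate of 4.58 was -1.27 without G292, and LUM, the proteoglycan lumican, ran from 24.5 to 1358 TPM against 0.02 to 33.2. Of 7 cartilage genes, 4 had estimates above 0 with a median of 2.09 that was -0.26 without U2OS, and SOX5 and SOX6 were higher in every ALT line (28.6%, against 8.06% of all genes). Their log2 fold changes were 2.53 and 3.77 at 1.48 TPM or less. DESeq2 called both (FDR 3.2e-05 and 0.00173), against 2.5% of all genes called higher, while edgeR (FDR 0.438 and 0.441) and the random line (FDR 0.109 and 0.267) did not. COL10A1, a collagen of hypertrophic cartilage, was at 5.4 TPM in SAOS2 and 0.141 or less in the other lines.

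Markers of other cell types were also followed. Estimates were above 0 for 3 of 4 tested genes of Ewing sarcoma, 4 of 7 of epithelium, 3 of 4 of blood cells and 5 of 6 cancer-testis antigens. Of all 21981 genes tested, 11906 had estimates above 0. The cancer-testis list held 21 genes, of which only these 6 were tested. Some members of these lists were well expressed in lines of both classes. KRT18, an epithelial keratin named after its values were seen, was at 683 to 935 TPM in U2OS, HOS-MNNG and KHOS and 5.78 to 115 in the other 3 lines. CD68, a macrophage marker that other cells also express, was at 97.1 TPM in G292 and 89.3 and 108 in HOS-MNNG and KHOS. The leukocyte gene PTPRC was at 0.365 TPM or less in every line, CDH1, the epithelial cadherin, was higher in the ALT lines but at 1.94 TPM or less, and CLDN4, a tight junction gene, was at 15.9 TPM in U2OS and 1.14 or less elsewhere. KCNN1, which the title of the series names, was at 4.36 TPM in U2OS and 0.112 or less in the other 5 lines. Of the cancer-testis antigens, MAGEA3 and MAGEA6 were at 340 and 281 TPM in SAOS2 and 17.7 and 133 in U2OS, and at 0.28 or less in G292 and the telomerase lines. These 2 genes are near-identical copies, so the split between them is uncertain. MAGEA10 was at 0.442 TPM or less in every line.

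The position of genes was described for each chromosome. The share of tested genes that were lower in every ALT line was highest on chromosomes 5 (15%), 15 (13.5%) and 16 (13.2%), against 7.48% of all genes. The share that were higher was highest on chromosomes 22 (14.9%), X (12.7%) and 4 (12.3%), against 8.06%. TERT and STING1 lie on chromosome 5. Chromosome copy number was not measured in these data, and its part in these shares was not tested.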

How the data were processed

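Each library has 1 deposited table of RefSeq transcripts. Per the file headers, its columns hold the transcript length, the effective length in nucleotides (other values, used by the length alternative), the estimated count (expected count, unscaled) and the TPM value, which the authors had scaled for length and depth. Per the submitters' processing notes, fastp 0.19.5 and kallisto 0.46.2 were used with hg38 and GRCh38.p14, and the sources used here do not give their roles or options. Per the labels' protocols, RNA came from a NucleoSpin kit and libraries from the TruSeq Stranded mRNA kit.

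Accessions were matched to genes in RefSeq's GRCh38.p14 annotation, which placed 169966 of 177816 transcripts (95.6%), and the rest held 1.14% to 1.6% of the count of a library and were left out. Depth ran from 25834254 to 44911542 estimated counts per library in the ALT lines and 15974173 to 33938388 in the telomerase lines, MG63 being the shallowest. Expected counts deposited by the authors were summed to genes, summed over the 3 libraries of a line and rounded. Genes were filtered with filterByExpr, scaled by TMM and fitted with edgeR 4.0.16 (quasi-likelihood, robust), and the FDR threshold was 0.05. Alternatives used DESeq2 1.42.0, limma 3.58.1 with voom and a random line effect, other scalings and filters, a length offset, all 13 lines, lines or replicates left out, and HOS-MNNG and KHOS as 1 unit. TERT and ATRX were also tested on log2(TPM + 1) with 2-sided exact permutations. The fitting code was tested on simulated data. R was 4.3.3 and Python 3.11.15. Intervals on counts cover counting error alone, since PCR copies were not marked by molecular identifiers.

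The classes were called not overlapping where all 3 ALT lines lay above or below all 3 telomerase lines in log2 CPM (prior count 2). Genes were named by rule: fixed telomere and cell cycle genes, the 3 members of each of 22 gene lists with the smallest p, and the 10 genes each way with the smallest p among non-overlapping genes whose log2 CPM averaged 1 or more and that had the same direction with HOS-MNNG and KHOS as 1 unit. This left 891 candidates higher and 1283 lower. Some genes and lists that the rule covers are not reported here. The members and lists were chosen with earlier results of these data known. Genes from outside this rule are marked in the text or belong to a counted list. The induced hairpin libraries of A673 were not used here.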

Additional observations from a re-analysis of the deposited data

How the results depend on the processing

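The number of genes called at an FDR under 0.05 depended on the fit used. It was 0 with edgeR under every scaling, filter and length alternative, with all 13 lines in the fit, with HOS-MNNG and KHOS as 1 unit, with MG63 alone and without each line or each replicate number (0 to 0). DESeq2 called 864 and the random line fit 249. These fits differ from edgeR in several steps at once, and which step moved the number was not tested. TERT was past the threshold with DESeq2 (log2 fold change -8.16), the random line (-7.21) and the replicate block below. It ran from -11.39 without U2OS to -7.25 without KHOS over the lines left out, and was -6.57 against MG63 alone. ATRX was 0.36 without SAOS2, and 0.45 in log2(TPM + 1), and ran from -0.93 to 0.36 and from -1.32 to 0.45 over the lines left out. The exact permutation difference of TERT was -3.76 with a pseudocount of 0.1 TPM and -1.55 to -0.98 without each line. TERT could not be fitted at 10 CPM in 3 lines, a filter that it did not pass.

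Replicate numbers did not pair the libraries. Deviations of same-numbered libraries correlated at -0.0768 to 0.102 over 45 pairs, 1 of them over 0.1, and of different-numbered libraries at -0.0917 to 0.067. The fit with a replicate block and fixed line means called 15458 of 21915 genes, with -8.36 for TERT and -1.17 for ATRX. It measures the spread between libraries of a line and not between lines, so its calls do not extend to the telomere classes.

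Of 1874 alternative values of 101 named genes, 1696 kept their direction and their side of the threshold. Another 154 passed it in the same direction and 24 reversed, none of these 24 past it. The 154 include passes of the replicate block fit, that of TERT among them, which do not extend to the telomere classes. Against MG63 alone the estimates were 0.40 for DKC1, 0.24 for DAXX, -0.31 for H3-3A, 0.30 for POT1, 0.18 for TERF2, -0.01 for MYC, 1.44 for IER3, 0.54 for DUSP5, 1.16 for CD68, 2.07 for KRT18 and -0.59 for MYH11. MYH11, at 0.264 TPM or less, was -0.09 with the HOS derivatives as 1 unit and -0.02 without replicate 3. COL10A1 was -0.70 with the random line. Without G292, H3-3A was -0.38, CDK4 -0.04, PRRX1 -1.27 and CIITA -0.07. Without HOS-MNNG, H3-3A was -0.07, POT1 0.06 and TERF2 0.11. NME4 was 0.19 without SAOS2 and 0.24 without MG63, and MYH11 -0.20 without KHOS. Over the lines left out, the other ends of these ranges were 0.41 for H3-3A, 3.20 for CDK4, 5.16 for PRRX1, -0.57 for POT1, -0.42 for TERF2, -1.33 for NME4, 2.10 for CIITA and 0.62 for MYH11. The cause was not tested. The median of all genes, 0.08, was 0.22 with no filter, 0.29 with MG63 alone, and 0.19 without MG63.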
